A study of Mus musculus with 9 samples.

Results

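Metallothioneins and the genes that handle zinc were examined in the liver of fructose-fed rats and water-fed controls. The 6 genes described are the metallothioneins Mt1 and Mt2A, the zinc-sensing transcription factor Mtf1, the exporters Slc30a1 and Slc30a10, and the importer Slc39a14. They are 6 of the 19686 genes in the count table, and all 6 symbols were matched. They were selected from the table by their symbols, with their levels in these rats already known. Their values in the 3 comparisons are therefore given as a description, with no p-value, and where they passed the thresholds of the fit over all genes is given only beside the share of all genes that did.

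Metallothioneins are small proteins rich in cysteine that bind zinc and copper and can release them again. Their genes are switched on by metals through MTF1, which binds metal response elements when free zinc rises, and hepatocytes are also known to raise them in response to glucocorticoids, fasting and inflammatory cytokines. Cellular zinc is set by 2 families of transporters, of which the SLC30 (ZnT) proteins move zinc out of the cytosol and the SLC39 (ZIP) proteins move it in. Some members of both families carry other metals, and SLC30A10 and SLC39A14 are best known in the liver for moving manganese.

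Hepatic RNA was sequenced from 9 male Wistar rats, 3 in each of the control, model and HME groups, after 8 weeks and a fast of 12 h. The control group drank water, and the model and HME groups drank 15% fructose. The control and model rats were given saline by gavage each day. The rats of the HME group, labelled DSS, were given by gavage an extract of the herbal formula Danggui-Shaoyao-San, at 1.8 g/kg. It was extracted with 50% methanol in water, then concentrated and freeze-dried. Both fructose groups thus share the drink, so the HME and model groups differ in the extract, and the HME and control groups in both the drink and the extract. The ages of the rats were not given in the sources used here. Mouse is entered as the organism in the labels, but the strain given is a rat and the genes carry rat Ensembl identifiers, and the data were read as rat.

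The 9 libraries held 14345819 to 26837227 counts, and no pair of rats within a group was a repeat of 1 library, with a chi-square of 20.5 to 76.2 per gene between rats. Levels are given as CPM, the counts of a gene relative to the library total after TMM scaling, as edgeR's cpm function gives them. Levels of different genes were not compared, since the table gives no gene lengths. Hepatocyte markers were abundant, with Alb taking 9.91% to 12.8% of the counts. The summed level of 8 hepatocyte markers ranged over 137863 to 175761 CPM in control, 173720 to 220443 CPM in model and 170248 to 213605 CPM in HME rats. The 10 Kupffer cell and macrophage markers, the 6 endothelial and 7 stellate cell markers, the 7 leukocyte, 5 bile duct and 7 red blood cell markers in the table each summed to ranges that overlapped between all groups. The 4 pancreas markers summed to 15.5 to 17.4, 19.8 to 28.8 and 16.9 to 27.4 CPM in the control, model and HME groups. The 5 intestine markers summed to 692 to 979, 1133 to 1941 and 436 to 683 CPM, almost wholly from Apoa4 and Cdh17, while the defining factor Cdx2 was at 0 in every model and HME library. The part of these 2 marker lists in the results was not tested.

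Mt1 (ENSRNOG00000038047) encodes one of the 2 main metallothioneins of the liver. Its level was 3.45, 1.31 and 4.13 CPM in the 3 control rats, 5.44, 5.40 and 3.77 CPM in the 3 model rats, and 62.2, 32.8 and 53.4 CPM in the 3 HME rats. All 3 HME rats lay above every other rat, while the control and model rats overlapped. The group means were 2.96 ± 1.47, 4.87 ± 0.957 and 49.5 ± 15.1 CPM (SD, n = 3 each). Even the lowest HME rat was 6.04 times the highest model rat and 7.95 times the highest control rat. On the log2 scale the fold change was 3.35 (SE 0.278) between the HME and model groups, 4.05 (SE 0.441) between the HME and control groups and 0.72 (SE 0.396) between the model and control groups. These are bulk samples, in which fewer cells of a type and less RNA per cell cannot be told apart.

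Mt2A (ENSRNOG00000043098) encodes the other main hepatic metallothionein. Its level was 9.74, 4.78 and 14.9 CPM in the control rats, 8.91, 17.8 and 6.73 CPM in the model rats, and 207, 107 and 173 CPM in the HME rats. The pattern was that of Mt1, with all HME rats above all others and the control and model rats interleaved. The means were 9.81 ± 5.07, 11.2 ± 5.88 and 162 ± 50.6 CPM (SD, n = 3 each). The lowest HME rat was 6.03 times the highest model rat and 7.20 times the highest control rat. Fold changes on the log2 scale were 3.88 (SE 0.406) between the HME and model groups, 4.05 (SE 0.489) between the HME and control groups and 0.18 (SE 0.463) between the model and control groups. In fold terms Mt1 and Mt2A were 10.2 and 14.7 times higher in the HME group than in the model group, and each was 16.6 times higher than in the control group.

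**Figure D1:**
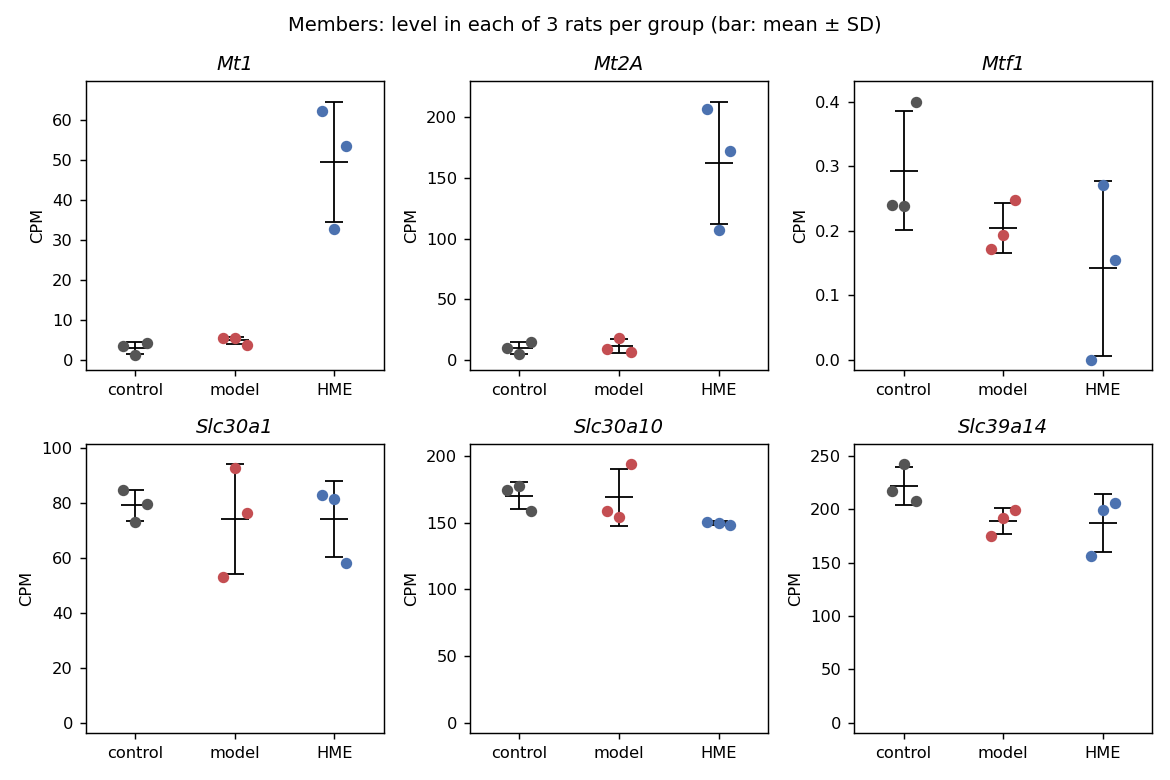
Level in CPM (vertical axes, 1 scale per gene) of the 6 genes in each of the 3 rats of the control, model and HME groups (points), with the group mean and SD as bars. Mt1 and Mt2A stood higher in all 3 HME rats than in any other rat, whereas the groups of Slc30a1 overlapped and Mtf1 stayed at or below 0.400 CPM.

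The spread of the metallothioneins between rats was wide in each group. For Mt1 the SD was 49.6% of the mean in control, 19.6% in model and 30.5% in HME rats. For Mt2A it was 51.7%, 52.7% and 31.1%. Control rat 2 was lowest for both genes in its group, and HME rat 2 was lowest for both in the HME group. The counts behind these levels were 22 to 127 for Mt1 and 80 to 277 for Mt2A in the control and model rats, against 608 to 1144 and 1990 to 3805 in the HME rats.

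Mt1 and Mt2A kept a steady ratio to each other in the treated rats. There were 3.33, 3.27 and 3.23 Mt2A counts for each Mt1 count in the 3 HME rats, and 2.83, 3.64 and 3.61 in the control rats. The model rats were more uneven, at 1.64, 3.30 and 1.79, so that model rats 1 and 3 were relatively low in Mt2A. Metallothionein genes are related copies, so part of the reads could have been placed on another copy or lost. How alike they are in the rat was not examined here. Another copy, Mt1m (ENSRNOG00000028841), had 3, 0 and 0 counts in the control rats, 3, 2 and 0 in the model rats and 9, 10 and 7 in the HME rats. Its HME rats were also the highest, but it was too low to enter the fits. Mt3 and Mt4 were not analysed here.

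Mtf1 (ENSRNOG00000050240), the transcription factor that senses zinc, was near the limit of detection. It had 6, 4 and 6 counts in the control rats, 4, 3 and 4 in the model rats and 0, 5 and 3 in the HME rats. In total 16, 11 and 8 counts were found per group, and the groups overlapped. A count of 0 in HME rat 1 allows up to 3 counts, by counting error alone. Mtf1 did not pass the filter on low counts in any comparison, so a change in its transcript was not detectable at this depth.

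Slc30a1 (ENSRNOG00000004749) encodes the zinc exporter of the plasma membrane, ZnT1, itself a known target of MTF1. Its level was 84.6, 73.2 and 79.5 CPM in the control rats, 53.2, 92.8 and 76.4 CPM in the model rats, and 82.7, 81.4 and 58.1 CPM in the HME rats. The groups overlapped in all 3 comparisons, and the lowest value of all was model rat 1. The means were 79.1 ± 5.72, 74.1 ± 19.9 and 74.1 ± 13.9 CPM (SD, n = 3 each). In log2 terms the fold change was 0.01 (SE 0.225) between the HME and model groups, -0.10 (SE 0.141) between the HME and control groups and -0.10 (SE 0.193) between the model and control groups. Slc30a1 thus differed by less than its standard error in each comparison. A modest difference could go unseen with 3 rats per group, and the part of MTF1 in the metallothionein levels was not tested.

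Slc30a10 (ENSRNOG00000002397) encodes an exporter that carries manganese into the bile. Its level was 174, 178 and 159 CPM in the control rats, 159, 154 and 194 CPM in the model rats, and 151, 149.9 and 148 CPM in the HME rats. The 3 HME rats lay close together and just below all other rats. The means were 170.2 ± 10.1, 169 ± 21.5 and 149.6 ± 1.31 CPM (SD, n = 3 each), with log2 fold changes of -0.17 (SE 0.138) between the HME and model groups, -0.19 (SE 0.102) between the HME and control groups and -0.01 (SE 0.141) between the model and control groups. The SD within the HME group was 0.876% of its mean, against 12.7% in the model group.

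Slc39a14 (ENSRNOG00000009832) encodes ZIP14, which takes up zinc, manganese and iron that is not bound to transferrin. Its level was 217, 242 and 207 CPM in the control rats, 175, 192 and 199 CPM in the model rats, and 156, 199 and 206 CPM in the HME rats. All model and HME rats lay below the 3 control rats, while the model and HME rats overlapped. The means were 222 ± 17.99, 189 ± 12.3 and 187 ± 27.3 CPM (SD, n = 3 each). The fold change on the log2 scale was -0.23 (SE 0.130) between the model and control groups, -0.25 (SE 0.137) between the HME and control groups and -0.01 (SE 0.150) between the HME and model groups. The first and second of these comparisons share the control rats. The gap was narrow, since the highest HME rat stood at 206 CPM and the lowest control rat at 207 CPM.

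For Mt1, Mt2A and Mtf1, as for the 3 transporters, the order of the group levels can be read against the spread between rats. The HME group came first for Mt1 and Mt2A, and the model and control groups that followed overlapped. For Slc39a14 the control group came first, followed by the model and HME groups, which overlapped. For Slc30a10 the control and model groups overlapped and the HME group came last. No order of the groups could be read for Slc30a1 and Mtf1.

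Of the 5 genes that passed the filter, Mt1 and Mt2A passed both thresholds (0.5 or more on the log2 scale in either direction, with an edgeR FDR no higher than 0.01) between the HME and model groups, against 0.136% of all tested genes. Mt1 passed both between the HME and control groups, against 1.48% of all tested genes, and between the model and control groups 0 of the 5 did, against 0.0801%. Ordered from the largest rise to the largest fall, Mt2A ranked 5 and Mt1 ranked 7 among 12502 genes between the HME and model groups. Mt1 ranked 3 and Mt2A ranked 4 among 12633 genes between the HME and control groups. Groups without overlap were found for 3 of the 5 genes between the HME and model groups, where 14% of all tested genes had none. The count was 4 of 5 between the HME and control groups, where 30.2% had none, and 1 of 5 between the model and control groups, where 21.1% had none. These counts come from the values that chose the genes and are not a result about them. The passing of the thresholds did not hold in every fit that left out a rat, which also makes 1 group smaller. Over all genes, 17 passed between the HME and model groups with every rat and 2 to 12 without one. Between the HME and control groups 187 passed with every rat and 86 to 132 without one. Whether the losses came from single rats or from the smaller groups was not tested. For the HME and model groups Mt1 passed in 1 of the 6 fits that left out a rat (without HME rat 2) and Mt2A in 1 of 6 (without model rat 2). For the HME and control groups Mt1 passed in 2 of 6 (without control rat 2 or HME rat 2) and Mt2A in 0 of 6. Without a rat, the log2 fold change between the HME and model groups stayed between 3.14 and 3.57 for Mt1 and between 3.62 and 4.37 for Mt2A.

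The genes whose pattern over the 9 livers was most like the mean of Mt1 and Mt2A were AC128848.1, Cpt1a, Pla2g12a, Aldh6a1 and Pzp, out of 11685 genes with a mean of at least 1 CPM. Likeness was measured as Pearson's r of log2(CPM + 1) over 9 livers, which were 0.99, 0.98, 0.97, 0.97 and 0.96. The livers fall into 3 groups and the HME group stands apart, so r was also taken after each group's mean was removed, where it was 0.93, 0.70, 0.89, 0.33 and 0.80. Between Mt1 and Mt2A themselves r was 0.98, and 0.88 within groups. The likeness of Aldh6a1 was thus mostly in the group means, and that of AC128848.1 and Pla2g12a also in the rats within a group. All points share the 9 libraries and their scaling.

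AC128848.1 (ENSRNOG00000025764) is a gene for which the table gives no description. Its level was 27.1, 7.29 and 26.8 CPM in the control rats, 35.5, 40.7 and 26.2 CPM in the model rats, and 417, 224 and 332 CPM in the HME rats. It had 5.55 to 7.87 counts for each Mt1 count in all 9 livers, so it followed Mt1 from rat to rat over the whole range of levels. Where it lies relative to the metallothionein genes was not analysed here.

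Cpt1a encodes the carnitine palmitoyltransferase that admits long-chain fatty acids to the mitochondria. Its level was 98.7 to 109 CPM in the control rats, 98.4 to 140.1 CPM in the model rats and 281 to 327 CPM in the HME rats. Pla2g12a encodes a secreted phospholipase A2 of group XII. Its level was 1.97 to 4.77, 1.30 to 4.89 and 19.3 to 39.1 CPM in the 3 groups. Both genes were high in all HME rats without overlap with any other rat. Aldh6a1, a mitochondrial enzyme of valine and thymine breakdown, and Pzp, a protease inhibitor of the plasma, differed by less, from 824 to 881 CPM in the control and model rats to 1025 to 1037 CPM in the HME rats for Aldh6a1, and from 5702 to 7131 CPM to 8355 to 10125 CPM for Pzp.

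**Figure D2:**
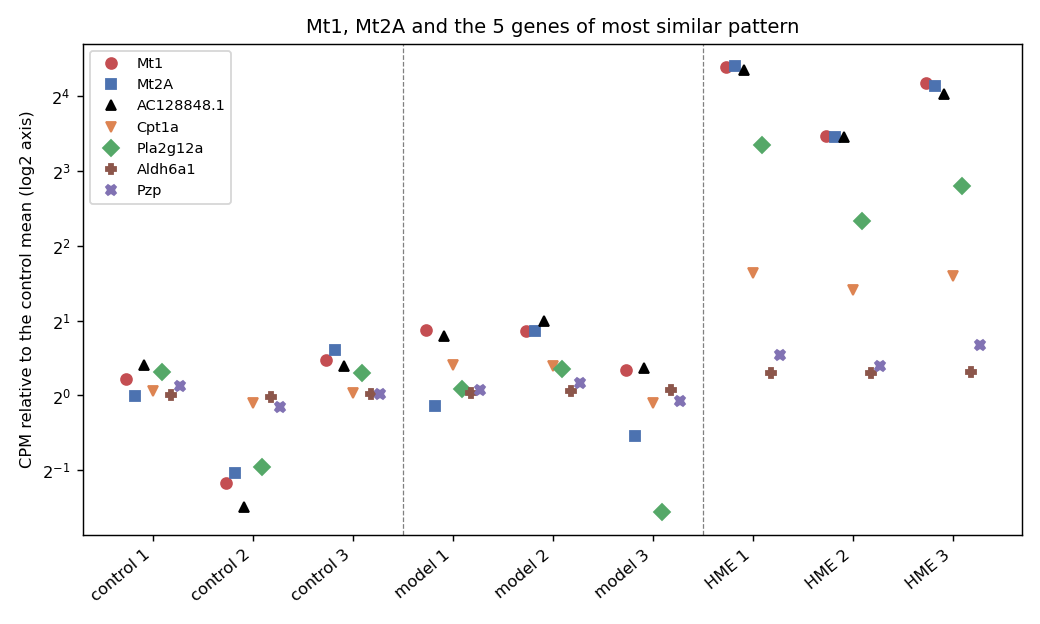
CPM of Mt1, Mt2A and the 5 genes of most similar pattern in each of the 9 rats, divided by the mean of the control rats (vertical log2 axis), with 1 symbol per gene. AC128848.1 lay close to Mt1 across the rats, Mt2A lay below both in model rats 1 and 3, and Cpt1a, Aldh6a1 and Pzp stood higher in the HME rats by smaller factors.

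The rest of the zinc transporters did not share the size of the metallothionein difference. In the 2 families, 7 ZnT and 12 ZIP genes besides the 3 above were in the table. Of those that passed the filter, 0 of 6 ZnT and 0 of 11 ZIP genes passed both thresholds in any comparison with edgeR. The median log2 fold change of the ZnT genes was -0.18 between the model and control groups, 0.00 between the HME and model groups and -0.24 between the HME and control groups. The ZIP genes had medians of 0.11, -0.04 and 0.03. Over all tested genes the median was 0.00, 0.00 and -0.01, and the 5th and 95th percentiles were -0.71 and 0.63, -0.59 and 0.58, and -0.81 and 0.69.

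The transporters named next had the largest rise or fall in their family among those without overlap in a comparison. Their size and lack of overlap follow from that choice. Of all tested genes, 21.1% had no overlap between the model and control groups. The share was 14% between the HME and model groups and 30.2% between the HME and control groups. Slc39a8, which encodes ZIP8, the closest relative of ZIP14, stood at 48.5, 51.1 and 45.5 CPM in the control rats, 82.7, 66.3 and 71.2 CPM in the model rats, and 75.8, 63.9 and 66.7 CPM in the HME rats. All fructose-fed rats lay above all control rats. With edgeR the log2 fold change was 0.60 (SE 0.137, FDR 0.116) between the model and control groups. It was 0.50 (SE 0.105, FDR 0.0245) between the HME and control groups, and neither passed. With DESeq2, Slc39a8 passed both thresholds between the HME and control groups, at 0.51 (FDR 0.00381).

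Slc39a4 encodes ZIP4, the importer best known for the uptake of dietary zinc in the intestine. Its level was 31.4, 58.2 and 43.1 CPM in the control rats, 76.8, 80.6 and 53.5 CPM in the model rats, and 40.7, 43.4 and 38.6 CPM in the HME rats. The HME rats lay below the model rats and within the range of the control rats. The log2 fold change between the HME and model groups was -0.78 (SE 0.172, edgeR FDR 0.162), the most negative value of a zinc transporter in that comparison. The summed intestine markers lay below the model group in the HME rats as well, as given above. Of these markers Apoa4 lay below the model rats, while Cdh17 overlapped. Fabp2 and Vil1 reached at most 1.24 and 0.517 CPM in any rat. The part of the intestine markers in the Slc39a4 value was not tested.

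Slc39a11, which encodes ZIP11, went the other way. Its level was 10.9, 13.1 and 9.93 CPM in the control rats, 7.15, 8.88 and 7.04 CPM in the model rats, and 11.4, 9.29 and 14.01 CPM in the HME rats. The model rats were lowest, without overlap with either group, at log2 fold changes of -0.56 (SE 0.186, FDR 0.257) against the control group and 0.60 (SE 0.207, FDR 0.491) for the HME group against the model group with edgeR. Slc30a2, the exporter into vesicles known from the mammary gland and pancreas, was low throughout, with 2 to 11 counts in the control rats, 21 to 35 in the model rats and 5 to 56 in the HME rats. Its log2 fold change between the model and control groups was 2.27 (SE 0.552, edgeR FDR 0.124). Slc30a4 and Slc30a6, which encode transporters of intracellular compartments, had log2 fold changes between -0.28 and 0.07 in the 3 comparisons.

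**Figure D3:**
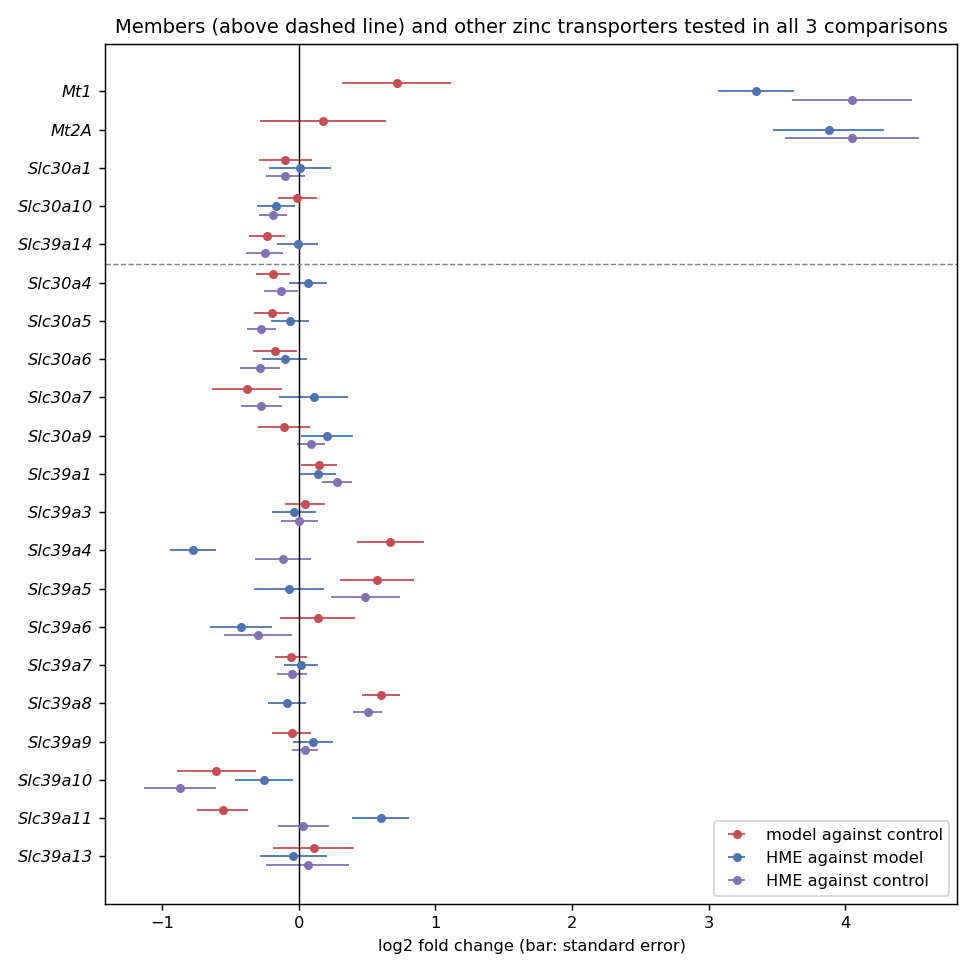
Log2 fold change (horizontal axis, bars are standard errors) of the members that passed the filter and of the other ZnT and ZIP genes tested in all 3 comparisons (rows), with 1 colour per comparison. Mt1 and Mt2A lay at 3.35 to 4.05 in both comparisons of the HME group, and every transporter shown lay within 1 of 0.

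Other genes tied to metals or to the known inducers of metallothioneins were examined as lists of 96 genes, with the 2 transporter families among them, of which 87 were in the table. Slc30a8, Slc39a2, Sco2, Adh4, Nr3c1, Srxn1 and Hspa1a were not analysed here. Of the genes that passed the filter, 0 of 82 passed both thresholds between the model and control groups, 0 of 80 between the HME and model groups and 3 of 82 between the HME and control groups, where 1.48% of all tested genes did. At an unadjusted p under 0.05 with edgeR there were 25, 9 and 32, where 13.2%, 8.02% and 24.3% of all tested genes were. DESeq2 found 6, 1 and 17 past both thresholds, where 2.05%, 1.18% and 6.09% of all tested genes were. The 3 genes past both thresholds with edgeR were Klf9, Hsph1 and Hsp90aa1. The lists were chosen with earlier results of these data known, so these counts are a description and not a test of the lists.

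Klf9, a transcription factor and direct target of the glucocorticoid receptor, rose in the HME group against the control group. Its level was 14.7, 13.0 and 20.3 CPM in the control rats, 10.3, 33.7 and 21.4 CPM in the model rats, and 62.1, 49.7 and 43.8 CPM in the HME rats. All HME rats lay above all others. The log2 fold change was 1.69 (SE 0.191, edgeR FDR 0.00244) between the HME and control groups, and it no longer passed without control rat 1 (FDR 0.0171). It was 1.27 (SE 0.373, edgeR FDR 0.384) between the HME and model groups. The 10 tested genes of the glucocorticoid list had a median log2 fold change of -0.13, 0.49 and 0.32 in the 3 comparisons. Their values ranged from -1.28 to 0.89, from -0.02 to 1.56 and from -1.08 to 2.43, with 5, 8 and 6 of the 10 positive. With edgeR 1 of 10 passed, between the HME and control groups. Pck1, the gluconeogenic enzyme that this hormone and fasting raise, was at 706 to 999 CPM in the control rats and 1270 to 3679 CPM in the HME rats (log2 fold change 1.78, SE 0.420, edgeR FDR 0.0613). Tsc22d3 and Fkbp5 are widely used as readouts of glucocorticoid action. Tsc22d3 was at 41.2, 59.1 and 67.9 CPM in the control rats, 27.2, 20.8 and 21.1 CPM in the model rats, and 13.1, 21.8 and 44.3 CPM in the HME rats, so that the model rats lay below all control rats and the HME rats overlapped both groups. Its log2 fold change was -1.28 (SE 0.213, FDR 0.0449) for the model against control, 0.20 (SE 0.391, FDR 0.933) for the HME against model and -1.08 (SE 0.483, FDR 0.246) for the HME against control groups with edgeR, and it was the only list gene between the model and control groups with an FDR under 0.05. The log2 fold changes of Fkbp5 were 0.23, -0.02 and 0.20. With DESeq2, Pck1 also passed both thresholds between the HME and control groups, and Tsc22d3 passed between the model and control groups.

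Of the 7 tested genes of the heat shock list, the chaperones Hsph1 and Hsp90aa1 fell in the HME group against the control group, where 1.48% of all tested genes passed in either direction. Hsph1, a partner of HSP70, was at 176, 141 and 129 CPM in the control rats, 80.9, 89.8 and 57.7 CPM in the model rats, and 43.4, 65.6 and 59.0 CPM in the HME rats. Hsp90aa1, the inducible form of HSP90, was at 14.1, 8.60 and 7.59 CPM, 4.58, 6.31 and 3.09 CPM, and 2.88, 3.51 and 2.95 CPM. Control rats were highest for both genes, and the model and HME rats overlapped. Compared with the control rats, the HME rats had a log2 fold change of -1.41 (SE 0.174, FDR 0.00313) for Hsph1 and of -1.71 (SE 0.252, FDR 0.00631) for Hsp90aa1 with edgeR. All 7 tested genes of the heat shock list had negative values in that comparison, with a median of -1.41, and 2 of 7 passed with edgeR. All 7 were also negative between the model and control groups, with a median of -0.67, where 0 of 7 passed with edgeR. With edgeR, Hsph1 passed in 3 of 6 fits that left out a rat (FDR 0.00538 to 0.0148) and Hsp90aa1 in 1 of 6 (FDR 0.00715 to 0.0326). Over all genes, 187 passed in that comparison with every rat and 86 to 132 without one. The small chaperone Hspb1, the mitochondrial chaperonin Hspe1 and the inducible HSP70 gene Hspa1b had log2 fold changes of -1.88, -0.82 and -1.90 between the HME and control groups. Their edgeR FDR was 0.0967, 0.0108 and 0.0863. With DESeq2, Hspb1, Hspe1 and Hspa8 also passed both thresholds there, and Hsph1 and Hspb1 passed between the model and control groups.

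**Figure D4:**
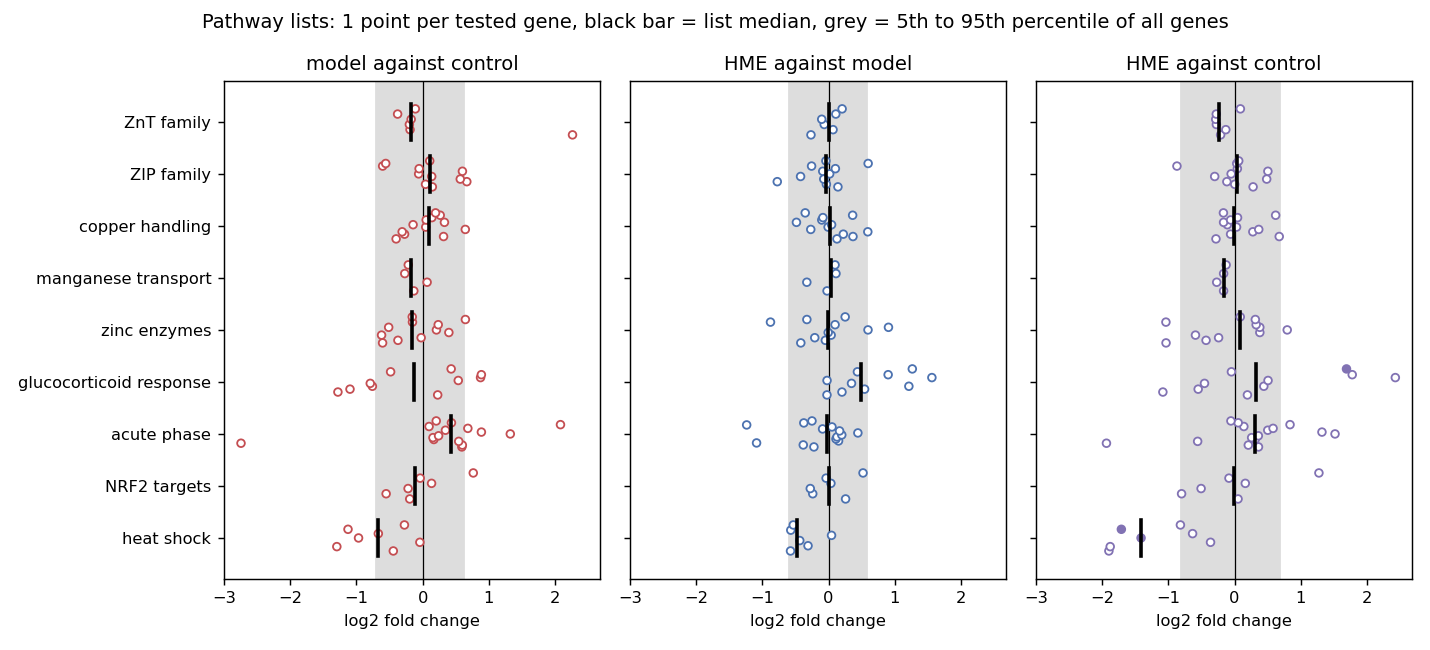
Log2 fold change (horizontal axes) of each tested gene on 9 lists (rows) in the 3 comparisons (panels), with the list median as a black bar, genes past both thresholds filled and the 5th to 95th percentile of all tested genes in grey. The 3 filled points are Klf9, Hsph1 and Hsp90aa1 between the HME and control groups, and the heat shock median was -1.41 there.

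Acute phase genes are those the liver makes in inflammation together with metallothioneins and ZIP14. With edgeR, 0 of 15 passed in the comparisons with the control group and 0 of 14 between the HME and model groups. Their medians were 0.44 between the model and control groups, -0.02 between the HME and model groups and 0.31 between the HME and control groups. Hamp, the iron hormone hepcidin, was at 183, 116 and 151 CPM in the control rats, 276, 377 and 476 CPM in the model rats, and 533, 254 and 505 CPM in the HME rats. All rats of both fructose groups lay above the control rats. Fold changes on the log2 scale were 1.33 (SE 0.237, FDR 0.0598) for the model group and 1.52 (SE 0.309, FDR 0.0343) for the HME group with edgeR, in comparisons that share the control rats. Orm1, an acute phase glycoprotein of the plasma, was lower in the 3 HME rats than in the 3 model rats, at a log2 fold change of -0.38 (edgeR FDR 0.626). A2m, the protease inhibitor alpha-2-macroglobulin, was under 2 CPM in every rat. Its log2 fold changes were -2.74 (edgeR FDR 0.122) in the model group and -1.94 (edgeR FDR 0.0771) in the HME group against the control group. With DESeq2, Hamp and Lbp passed both thresholds in both comparisons with the control group, and Crp and Hpx between the HME and control groups.

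The 12 genes for copper handling had medians of 0.10, 0.02 and -0.01 in the 3 comparisons and 0 passed both thresholds with edgeR. Values went both ways, with 8, 6 and 6 of the 12 positive. Between the HME and control groups 4 of 12 had an unadjusted p under 0.05 with edgeR, and Cp and Slc31a2 passed both thresholds with DESeq2. Cp, the copper-carrying ferroxidase ceruloplasmin, stood at 1558 to 1816 CPM in the control rats, 2002 to 2049 CPM in the model rats and 2540.2 to 2619 CPM in the HME rats. The 3 groups did not overlap, with log2 fold changes of 0.27 (SE 0.143, FDR 0.482), 0.36 (SE 0.135, FDR 0.549) and 0.62 (SE 0.120, FDR 0.0186) with edgeR for the model against control, HME against model and HME against control groups. The copper importer Slc31a1 was at 166, 166 and 170.3 CPM in the control rats, 96.7, 153 and 132 CPM in the model rats, and 139.5, 138 and 137 CPM in the HME rats, below the control group in both. The related Slc31a2 was higher in the HME group than in the control group by a log2 fold change of 0.68 (SE 0.148, edgeR FDR 0.0288). The copper chaperone Atox1 had log2 fold changes of 0.65, -0.27 and 0.37 in the 3 comparisons.

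With edgeR, 0 of 4 manganese genes and 0 of 11 zinc enzymes passed both thresholds in any comparison. The manganese genes had medians of -0.17, 0.04 and -0.17, and Slc11a2, the metal importer DMT1, had log2 fold changes of -0.27 and -0.17 in the model and HME groups against the control group. The zinc enzymes had medians of -0.15, -0.01 and 0.09. Adh1, an alcohol dehydrogenase, stood at 1367 to 2197 CPM in the control rats and 784 to 989 CPM in the HME rats (log2 fold change -1.04, SE 0.183, edgeR FDR 0.0132). Sord, the sorbitol dehydrogenase that yields fructose, was at 917 ± 16.7, 708 ± 41.1 and 682 ± 39.8 CPM (SD, n = 3 each). Between the HME and model groups, Alpl, a phosphatase that binds zinc, had a log2 fold change of -0.88 (SE 0.182, edgeR FDR 0.129) and Car5a, the mitochondrial carbonic anhydrase, 0.91 (SE 0.244, edgeR FDR 0.309). Against the control group, Car3 of the HME group and Car2 of the model group, also carbonic anhydrases, had log2 fold changes of 0.80 and 0.40. With DESeq2, Alpl passed both thresholds between the HME and model groups, and Adh1 and Car3 between the HME and control groups.

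The NRF2 targets, among which are detoxifying genes that oxidants raise, had medians of -0.12, 0.00 and -0.02 over 6 genes. With edgeR, 0 were past the thresholds. Osgin1, an inhibitor of growth induced by oxidative stress, was at 148 to 170.04 CPM in the control rats, 246 to 324 CPM in the model rats and 182 to 645 CPM in the HME rats. Nqo1, the quinone reductase, went the other way, at 10.5 ± 1.27, 7.14 ± 0.870 and 6.03 ± 0.263 CPM (SD, n = 3 each). Its log2 fold change was -0.80 (SE 0.154, edgeR FDR 0.0186) between the HME and control groups. With DESeq2, Osgin1 passed both thresholds between the model and control groups, and Nqo1 between the HME and control groups.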

How the data were processed

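The authors aligned the reads with HISAT2 and counted exonic reads per gene with HTSeq 0.6.1, ignoring strand, on Rnor 6.0 per the submitters' processing notes. They deposited raw counts, which were used as they are. Each comparison was fitted on the 6 libraries of its groups with edgeR 4.0.16 (R 4.3.3), using filterByExpr, TMM, glmQLFit (robust) and glmQLFTest, two-sided. FDR is the Benjamini-Hochberg value over all genes tested, and SE is the fold change divided by the root of F. P-values weigh the group difference against the variation between rats, which is estimated with information shared over all genes. The 3 rats per group were not stated to be from separate litters or cages. CPM were scaled to TMM sizes over 9 libraries.

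The members and lists were chosen with earlier results of these data known. Named genes were the members, list genes past both thresholds, the largest rise and fall without overlap in each list and comparison, and the 5 genes most like the metallothioneins. Mt1m, Lbp, Crp, Hpx and Hspa8 were named after their values were seen.

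Same-numbered rats did not deviate together (r of -0.266 to -0.0125 over 9 pairs, against -0.187 to 0.273 for differently numbered rats). This gave no sign that the numbers pair the rats, but with 3 rats per group it cannot exclude a pairing. The alternatives were DESeq2 1.42.0, other scalings and filters, all 9 libraries in one fit, a replicate block, an FDR of 0.05 and each rat left out. The fits were tested on simulated data. A table of assembled transcripts, whose unit is not stated, and rat sequences were not used here.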

Additional observations from a re-analysis of the deposited data

How the results depend on the processing

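The direction of Mt1 and Mt2A in both comparisons of the HME group held under all alternatives run, with log2 fold changes of 3.14 to 4.37 against the model group and 3.72 to 4.46 against the control group. Between the HME and model groups, Mt1 passed both thresholds in 6 of 7 settings other than leaving out a rat and Mt2A in 4 of 7. Between the HME and control groups Mt1 passed in 6 of 7 and Mt2A in 4 of 7. Of all tested genes, from 7 of 12502 (replicate block) to 147 of 12502 (DESeq2) passed between the HME and model groups. Between the HME and control groups it was from 104 of 12633 to 769 of 12633 in the same settings. The members were chosen with these values known, so their counts are not a result about them. Between the model and control groups, Mt2A ranged from -0.32 without model rat 2 to 0.61 without control rat 3. Without a rat, Slc30a1 ranged from -0.29 to 0.08, from -0.18 to 0.19 and from -0.18 to 0.06 in the model against control, HME against model and HME against control comparisons, so no direction held. Scaling by library size alone moved Slc30a10 and Slc39a14 to -0.15 and -0.37 between the model and control groups, and Slc30a10 to -0.33 between the HME and control groups.

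The number of list genes past both thresholds depended on the test and the filter. Between the model and control groups it was 0, but 2 with no filter on low counts, 6 with DESeq2 and 1 at an FDR of 0.05. Between the HME and model groups it was 0, and 1 with DESeq2. Between the HME and control groups it was 3, but 5 with library size alone, 9 with no filter, 17 with DESeq2, 1 with all 9 libraries in one fit and 14 at an FDR of 0.05. Leaving out each rat gave 0 in every fit of the first and second comparison and 1 to 5 in the third, with 1 without control rat 1, control rat 2 or HME rat 3 and 5 without HME rat 2. With the replicate number as a block there were 0, 0 and 2 (Lbp and Hamp, in place of Klf9, Hsph1 and Hsp90aa1), Mt1 and Mt2A did not pass between the HME and model groups, and both passed between the HME and control groups. Same-numbered rats did not deviate together, so the pairing is by number only. The causes were not tested.

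Over all genes, 10, 17 and 187 passed in the 3 comparisons, against 256, 147 and 769 with DESeq2, 71, 38 and 489 with no filter, 25, 20 and 113 with all 9 libraries in one fit, and 0, 7 and 104 with the block. Without a rat, 0 to 10, 2 to 12 and 86 to 132 passed. Library size alone gave 8, 11 and 238. Depth limits Mtf1 and Mt1m, which had at most 10 counts in a library.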
